A study of Oryctolagus cuniculus with 39 samples.

Results

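The subscapular stromal vascular fraction of rabbit brown fat was compared between 2 ages, 12 weeks and day 1, with 3 bulk RNA-seq libraries at each age. All 6 libraries came from New Zealand White rabbits (Oryctolagus cuniculus) with no treatment or engineered allele in their labels, and they differ in the labels only in age and replicate number. Genes with a scaled FPKM of at least 1 in at least 3 of the 6 libraries were compared, which kept 12017 of the 20589 genes in the table. FPKM is the number of sequenced fragments of a gene divided by its transcript length and by the mapped fragments of the library, and scaled FPKM is that value divided by a size factor for each library. The same table holds stromal libraries of this depot at 3 and 6 weeks and of the interscapular depot at all 4 ages, also 3 per group, which are used below as the surroundings of the main comparison. The labels do not say whether the 3 libraries of a group came from separate animals, litters or pools, so the p-values measure only the spread between these libraries.

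Brown fat makes heat by burning fuel in the mitochondria of brown adipocytes, where uncoupling protein 1 (UCP1) lets protons leak back without making ATP. Newborn rabbits carry large brown fat pads around the shoulder blades that regress and take on features of white fat as the animal grows, the process named in the title of the series. The stromal vascular fraction is what remains when digested fat is freed of its floating adipocytes. It holds adipocyte progenitors and fibroblasts, endothelial cells, pericytes and smooth muscle cells, nerve sheath cells and resident immune cells.

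The libraries matched that description in part. PDGFRA of progenitors and fibroblasts, PECAM1 of endothelium and PTPRC of leukocytes were detected in all 6. The adipocyte gene ADIPOQ was also detected in all 6, at 219 to 762 scaled FPKM, and the skeletal muscle actin gene ACTA1 ranged from 12.2 to 1114, so neither adipocyte nor muscle RNA was at or near 0. Between 15451 and 15883 genes had a value above 0 in the day 1 libraries and between 16300 and 17249 at 12 weeks. Relative depth, estimated from the spacing of low FPKM values, was 0.753 to 0.983 at day 1 and 0.925 to 1.281 at 12 weeks, and absolute depth is unknown. Across genes, libraries of the same age correlated with Pearson's r of 0.951 to 0.973 and libraries of different ages with 0.866 to 0.887. ADORA1 and LOC100009266, the 2 most abundant genes at day 1, held 30.0% ± 6.26 (SD, n = 3) of the summed FPKM at day 1 and 6.65% ± 1.90 (SD, n = 3) at 12 weeks. The groups did not overlap, and the exact two-sided permutation test gave p = 0.1, the smallest that 3 against 3 libraries allow. Whether these shares reflect the transcripts or the quantification could not be told from FPKM. FPKM are relative to the whole library, so a smaller share of these 2 genes raises the values of the others. Without scaling the median tested gene was 0.43 higher at 12 weeks on the log2 scale, and with scaling it was 0.005 higher. All changes below are on the scaled values.

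Gene expression differed widely between the ages. Of the 12017 genes, 3813 (31.7%) were called at an adjusted p under 0.05 by limma with Benjamini-Hochberg adjustment, 1869 (15.6%) higher at 12 weeks and 1944 (16.2%) lower. A change of at least 1 on the log2 scale, that is a doubling or a halving of scaled FPKM plus 1, was called upward in 748 genes and downward in 743, and a change of at least 4 in 13 and 13. The 3 values of the 2 ages did not overlap in 5794 genes (48.2%). Leaving out 12 weeks replicate 2 or day 1 replicate 1 lowered the count of called genes to 2408 and 2505. Without scaling 5089 genes were called higher and 801 lower, so that the share of higher calls was 86.4% in place of 49.0%. Of the called genes, 312 passed the filter in all 3 day 1 libraries but not in all 3 at 12 weeks, all of them lower, and 431 passed only in the opposite way, all of them higher, which the filter itself brings about. Described next are the 12 largest changes in each direction among genes with a standard symbol, a mean of at least 10 scaled FPKM in 1 group and no overlap. Genes listed only by a LOC identifier were left out, and some of them changed by more, such as LOC100328613 and LOC100328910 (6.47 and 6.32 higher on the log2 scale), which the closing section describes.

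**Figure D1:**
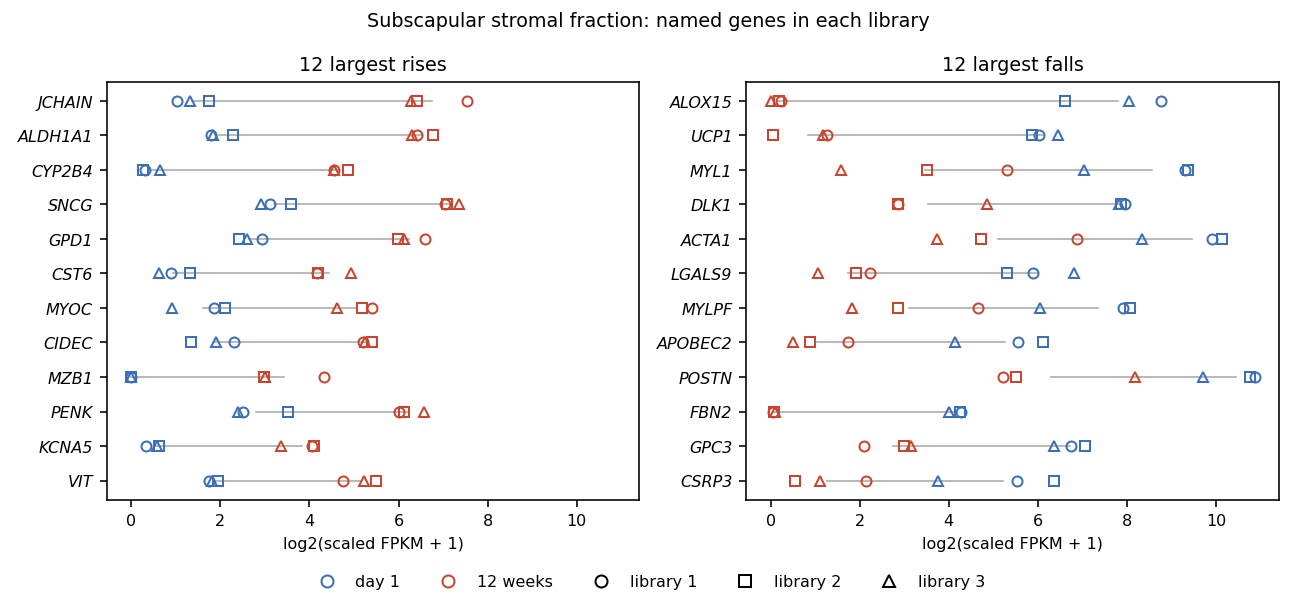
The 12 genes with the largest rise (left) and the 12 with the largest fall (right), among called genes that have a standard symbol and a group mean of at least 10 scaled FPKM, from day 1 (blue) to 12 weeks (red), as log2(scaled FPKM + 1) in each of the 3 libraries per age. Symbols mark the library number and the ends of each grey line the 2 group means, and in no gene do the 2 ages overlap.

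Among the largest rises were genes of plasma cells, of vitamin A and drug metabolism and of lipid storage. JCHAIN, which joins antibody chains into polymers in plasma cells, was at 1.03, 2.36 and 1.5 scaled FPKM in the day 1 libraries and at 185, 84.5 and 76.4 at 12 weeks. The lowest library at 12 weeks exceeded the highest at day 1 many times over, and JCHAIN rose by 5.38 on the log2 scale (SE 0.34; limma, adjusted p = 0.000125). MZB1, a chaperone gene of antibody-secreting cells, was listed at 0 in all 3 day 1 libraries and at 19.1, 6.84 and 7.02 at 12 weeks (limma, adjusted p = 0.000787). ALDH1A1, which makes retinoic acid from retinal, stood at 2.48, 3.89 and 2.59 at day 1 and 85.0, 108 and 77.9 at 12 weeks, 2 tight groups far apart, a rise of 4.52 (SE 0.19; limma, adjusted p = 2.22e-05). CYP2B4, a cytochrome P450 of drug metabolism, went from 0.236, 0.208 and 0.558 to 22.4, 27.9 and 22.5, a rise of 4.25 (SE 0.17; limma, adjusted p = 1.71e-05). GPD1, which makes the glycerol phosphate backbone of triglycerides, and CIDEC, a lipid droplet protein of fat cells, rose by 3.58 and 3.44.

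SNCG, a synuclein gene expressed in adipocytes and neurons, was at 7.62, 11.1 and 6.52 scaled FPKM at day 1 and 130.1, 135 and 162 at 12 weeks and rose by 3.95 (SE 0.20; limma, adjusted p = 5.33e-05). PENK, the precursor of the enkephalin opioid peptides, went from 4.67, 10.4 and 4.28 to 63.3, 69.0 and 94.8, and the secreted protease inhibitor gene CST6 from 0.862, 1.49 and 0.537 to 17.0, 17.4 and 29.7. MYOC, encoding the secreted protein myocilin, VIT, encoding the matrix protein vitrin, and KCNA5, a voltage-gated potassium channel, rose by 3.45, 3.32 and 3.34. None of these 12 rises was lost under any alternative listed in the closing section.

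ALOX15, a lipoxygenase gene counted below in the granulocyte and mast cell list, and UCP1 led the falls. The cell source of the ALOX15 RNA was not tested. ALOX15 was at 433, 96.3 and 262 scaled FPKM in the day 1 libraries, an uneven group, and at 0.181, 0.139 and 0 at 12 weeks, at or near 0 in all 3. It fell by 7.66 on the log2 scale (SE 0.47; limma, adjusted p = 0.000115). LGALS9, a galectin gene, was at 58.3, 38.5 and 110.5 at day 1 and 3.72, 2.78 and 1.09 at 12 weeks, a fall of 4.26 (SE 0.42; limma, adjusted p = 0.000657). DLK1, a surface protein of preadipocytes that holds back their differentiation, was at 248, 234 and 224 at day 1 and at 6.23, 6.24 and 28.0 at 12 weeks. Replicate 3 was thus above the other 12 weeks libraries, but all 3 lay far below day 1, and DLK1 fell by 4.36 (SE 0.49; limma, adjusted p = 0.00116). GPC3, a cell surface proteoglycan of fetal tissues, went from 106, 132 and 81.6 to 3.29, 7.03 and 7.94, a fall of 3.97 (SE 0.30; limma, adjusted p = 0.000246). FBN2, the fibrillin of developing elastic fibres, went from 18.2, 18.1 and 15.2 to 0.0348, 0.0486 and 0.0765, and POSTN, the matrix protein periostin, from 1863, 1739 and 835 to 36.4, 44.3 and 290.0. The other 5 of these 12 genes, MYL1, ACTA1, MYLPF, APOBEC2 and CSRP3, belong to striated muscle and are described with the muscle genes.

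Genes that mark the cell types and pathways of brown fat were then read from 22 lists, each given by its counts and its median beside those of all tested genes (31.7% called, median 0.005). In bulk samples, fewer cells of a type and less RNA per cell cannot be told apart.

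**Figure D2:**
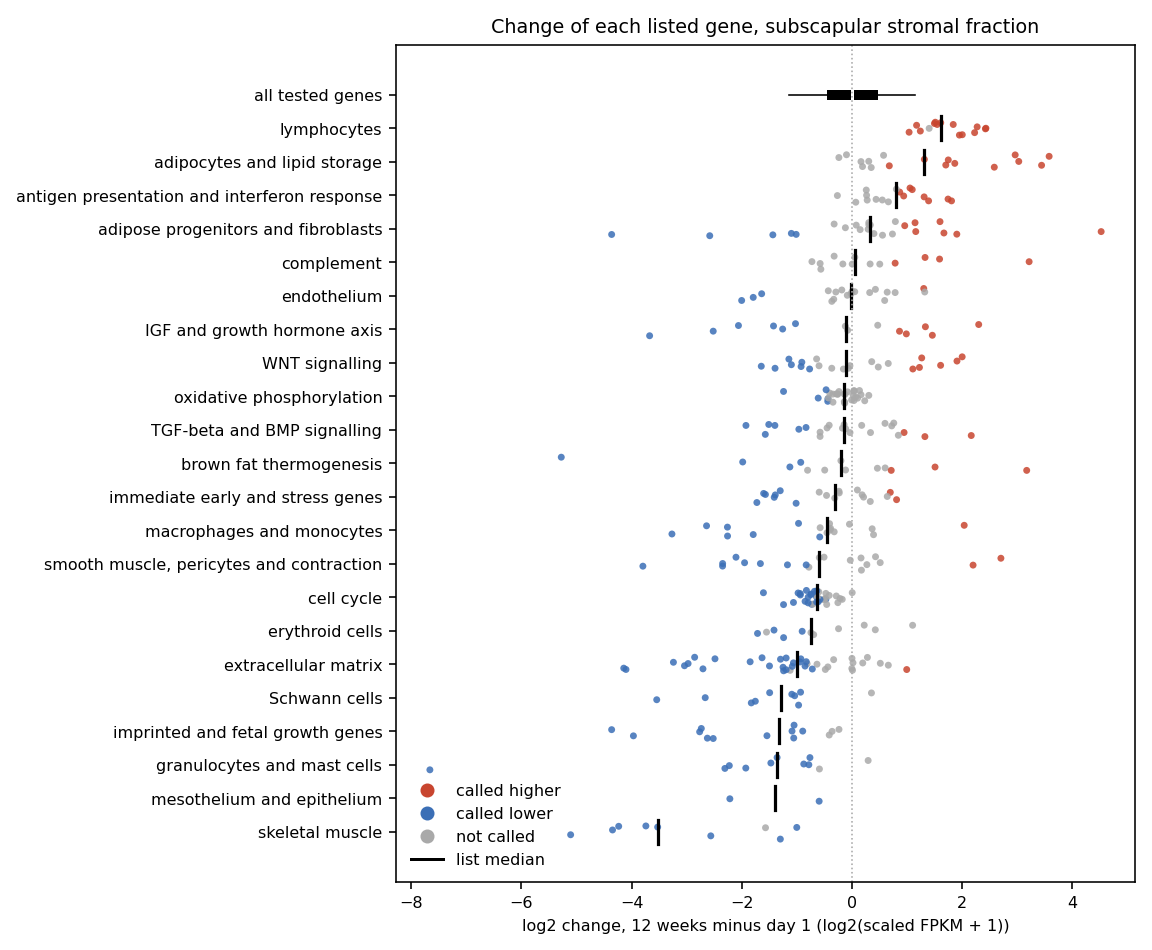
Change of each tested gene in the 22 lists, 12 weeks minus day 1, on the log2(scaled FPKM + 1) scale, with called genes in red (higher) or blue (lower) and others in grey; black ticks mark list medians. The top line shows all 12017 tested genes by percentiles, with a thick bar from -0.36 to 0.38 (25 to 75) and a thin one from -1.14 to 1.14 (5 to 95), and the list medians run from -3.53 for skeletal muscle to 1.61 for lymphocytes.

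Brown fat thermogenesis genes changed in both directions. UCP1 was at 63.6, 57.7 and 86.0 scaled FPKM in the 3 day 1 libraries and at 1.42, 0.0416 and 1.25 at 12 weeks, so that every day 1 value exceeded every 12 weeks value by more than an order of magnitude, and it fell by 5.28 (SE 0.33; limma, adjusted p = 0.000115). CIDEA, a lipid droplet protein of brown fat, went the other way, from 10.9, 10.0 and 8.30 at day 1 to 123, 72.0 and 96.7 at 12 weeks, a rise of 3.17 (SE 0.21; limma, adjusted p = 0.000139). Of the 13 tested thermogenesis genes, 4 fell and 3 rose, with a median of -0.20. FABP3, a fatty acid carrier of oxidative tissues, fell by 1.98, COX7A1, a muscle and brown fat subunit of cytochrome c oxidase, by 1.13, and CPT1B, which brings fatty acids into mitochondria, by 0.93. ZIC1, a transcription factor of classical brown fat, rose from 0.503, 0.142 and 0 to 2.52, 2.67 and 2.04, and LETMD1, a mitochondrial protein needed for thermogenesis, by 0.71. ZIC1 passed the filter only through its 12 weeks libraries. PRDM16, a co-regulator of brown fat identity, was at 1.20, 2.5 and 3.62 at day 1 and 0.911, 1.14 and 0.627 at 12 weeks, with no overlap but a limma adjusted p of 0.0611. PPARGC1A, a driver of mitochondrial growth, was too low to be tested, at 1.40, 1.86 and 0.989 at day 1 and 0.466, 0.465 and 0.375 at 12 weeks, as was DIO2, which activates thyroid hormone, at 0.595, 0.616 and 0 and 0.0417, 0.0625 and 0.0994. Without scaling the median of this list was 0.10, and with all 24 stromal libraries in the fit the limma adjusted p of COX7A1 was 0.0545.

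FABP3, COX7A1 and CPT1B are also expressed in striated muscle, whose markers were lower at 12 weeks, and the part of muscle RNA in their change was not tested. Mitochondrial respiratory chain genes moved little. Of 30 oxidative phosphorylation genes, 5 fell, none rose, and the median was -0.14, which was 0.35 without scaling. ATP5G1, a subunit of the ATP synthase ring now called ATP5MC1, had the largest change and went from 80.8, 109.5 and 84.6 to 36.4, 32.6 and 45.4 (-1.24 on the log2 scale, SE 0.18; limma, adjusted p = 0.00253). ATP5B, the catalytic subunit of the same enzyme now called ATP5F1B, fell by 0.61. COX5A and UQCRC1, of cytochrome c oxidase and the bc1 complex, fell by 0.47 and 0.44, and without scaling both were slightly higher at 12 weeks (0.01 and 0.03) and not called. Without scaling 9 of the 30 genes were called higher and 1 lower. Leaving out any 1 library left between 1 and 5 lower calls, with 1 without 12 weeks replicate 2, 2 without day 1 replicate 1 or replicate 2, and 3 without 12 weeks replicate 1 or day 1 replicate 3.

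Adipocyte and lipid storage genes stood out by their direction, with 10 of 17 tested genes higher, none lower and a median of 1.31. Leptin (LEP), the satiety hormone of white fat cells, was listed at 0 in all 3 day 1 libraries and at 5.79, 8.41 and 7.43 at 12 weeks (limma, adjusted p = 9.57e-05). ADIPOQ, the adipocyte hormone adiponectin, was at 224, 219 and 254 at day 1 and 719, 762 and 349.5 at 12 weeks, a rise of 1.31 (SE 0.29; limma, adjusted p = 0.0135). Its 12 weeks replicate 3 was well below the other two but above all of day 1. CIDEC went from 3.94, 1.51 and 2.76 to 35.7, 41.5 and 37.1, and GPD1 from 6.6, 4.38 and 5.07 to 95.2, 62.0 and 68.3. DGAT2, which completes triglyceride synthesis, THRSP, a lipogenic nuclear protein, LPL, the lipase that draws fatty acids from blood lipoproteins, and LIPE, hormone-sensitive lipase, rose by 2.58, 2.96, 1.70 and 1.86. CEBPA, a transcription factor of adipocyte differentiation, was at 3.67, 4.63 and 4.72 at day 1 and 17.8, 18.6 and 14.4 at 12 weeks, a rise of 1.75 (SE 0.16; limma, adjusted p = 0.000460). The master regulator PPARG was at 39.8, 22.9 and 48.6 and 51.4, 52.1 and 31.7, with overlapping groups and a change of 0.30 (limma, adjusted p = 0.471). FABP4 and CD36, fatty acid binding and uptake genes shared by adipocytes and capillary endothelium, differed by 0.16 and -0.10 and were not called either. The summed list was 2554 to 6958 scaled FPKM at day 1 and 4528 to 6641 at 12 weeks. FABP4 alone made up most of each sum, at 4002, 1956 and 5708 at day 1 and 4555, 4237 and 3241 at 12 weeks. The sum therefore follows FABP4 more than the genes that rose, and how many adipocytes the fraction retained was not tested. Without day 1 replicate 2 the glycerol channel gene AQP7 (-0.24, not called) was called lower.

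Progenitor and fibroblast genes did not move as a block. Of 24 tested genes 7 rose and 5 fell, with a median of 0.32. PDGFRA, the growth factor receptor that marks adipose progenitors, was at 7.72, 10.1 and 5.69 at day 1 and 26.6, 29.3 and 39.3 at 12 weeks, with no overlap and a rise of 1.90 (SE 0.22; limma, adjusted p = 0.00133). The surface markers THY1 and CD34 rose by 1.6 and 0.96. Among secreted and cytoskeletal genes of fibroblasts, GSN (gelsolin) rose by 1.67, CLEC3B (tetranectin) by 1.16 and DCN (the collagen-binding proteoglycan decorin) by 1.14. CLEC3B missed the threshold without day 1 replicate 1 (limma, adjusted p = 0.051) and DCN with no filter on low values (0.0903). PI16 and DPP4, markers of early multipotent progenitors, were at 627, 557 and 325 and 28.5, 32.3 and 16.4 at day 1 and at 882, 744 and 795 and 42.3, 35.0 and 55.1 at 12 weeks, with no overlap of the ages in either but limma adjusted p-values of 0.0626 and 0.0597. EBF2, a factor of brown fat precursors, differed by 0.40 (limma, adjusted p = 0.0689). Lower genes of the list, beside DLK1, included DPEP1, a membrane dipeptidase that went from 5.65, 5.16 and 5.88 to 0.0556, 0.243 and 0 (-2.58, SE 0.16; limma, adjusted p = 0.000116), and WNT2. The summed level of the list was 4983 to 6951 scaled FPKM at day 1 and 8865 to 12340 at 12 weeks. Abundant genes weigh most in this sum, such as DCN at 1806, 1976 and 1149 at day 1 and 3022, 3198 and 4574 at 12 weeks. It does not stand for the list as a whole, of which 12 genes were not called. Without scaling 15 of the 24 were called higher.

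Extracellular matrix genes were mostly lower at 12 weeks. The matrix list holds collagens, elastic fibre proteins, cross-linking enzymes and matricellular proteins, and 23 of its 38 tested genes fell, 1 rose and the median was -1.0. Elastin (ELN), the core of elastic fibres, was at 347, 551 and 404 at day 1 and 39.8, 43.5 and 49.8 at 12 weeks, with the groups far apart, a fall of 3.24 (SE 0.20; limma, adjusted p = 0.000110). LOX, the enzyme that cross-links collagen and elastin, went from 104, 106 and 72.7 to 14.2, 14.7 and 18.9, a fall of 2.49 (SE 0.19; limma, adjusted p = 0.000252), and the elastic fibre linker FBLN5 fell by 1.85. The matricellular genes TNC (tenascin C) and THBS1 (thrombospondin 1), the fibril-associated collagen COL12A1 and the proteoglycan BGN fell by 3.04, 2.71, 2.86 and 1.63, and COL5A2, a regulator of collagen fibril width, by 1.24.

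The bulk fibrillar collagens behaved less evenly. COL1A1 was at 4899, 4871 and 3319 scaled FPKM at day 1 and 1205, 1510 and 4212 at 12 weeks, and the ages overlapped because 12 weeks replicate 3 lay within the day 1 range. The difference was -1.12 (limma, adjusted p = 0.0971). COL3A1 showed the same pattern, at 6358, 6829 and 3943 and 2619, 2910 and 5988 (-0.64, limma adjusted p = 0.231). The same library was also the highest of the 12 weeks group for POSTN, DLK1 and the summed progenitor list. Fibronectin (FN1) and the small proteoglycan LUM differed by 0.02 and 0.00 (limma, adjusted p = 0.954 and 0.998). The proteoglycan OGN was the 1 higher gene (0.99, limma adjusted p = 0.0331), and it was not called without 12 weeks replicate 3 (0.0829), day 1 replicate 1 (0.089) or day 1 replicate 3 (0.0833), or without 12 weeks replicate 2 (0.0582). Without scaling 15 of the 38 were called lower and 5 higher.

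Smooth muscle and pericyte genes moved in both directions. ACTA2, smooth muscle actin, was at 334, 751 and 539 at day 1 and 105, 107 and 89.3 at 12 weeks, with day 1 uneven and no overlap, a fall of 2.35 (SE 0.28; limma, adjusted p = 0.00139). TAGLN, an actin-bundling protein, and MYH11, the smooth muscle myosin heavy chain, fell by 2.11 and 1.95. ACTG2, the other smooth muscle actin gene, fell by 3.79, but actin genes are near copies of each other, how the authors counted reads shared between them is not given in the sources used here, and their separate values are therefore uncertain. RGS5, a G protein regulator of pericytes, was at 20.6, 12.5 and 18.5 at day 1 and 132, 167 and 68.7 at 12 weeks, a rise of 2.70 (SE 0.33; limma, adjusted p = 0.00148), and KCNJ8, a potassium channel of pericytes, rose by 2.2. The pericyte surface genes MCAM and CSPG4 went the other way, with differences of -1.17 and -0.83 (limma, adjusted p = 0.0223 and 0.0139). The contractile genes MYL9, CALD1 and SMTN, at 0.16, -0.03 and 0.51, were not called. In the whole list of 19 tested genes, 8 fell and 2 rose, with a median of -0.59. The tropomyosin genes TPM1 and TPM2, down by 1.66 and 2.35, are shared with skeletal muscle, whose markers fell in the same libraries, and the part of muscle RNA in them was not tested.

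Skeletal muscle genes had the lowest median of the 22 lists, with 8 of 9 tested genes lower, none higher and a median of -3.53 on the log2 scale. ACTA1, skeletal muscle actin, was at 954, 1114 and 323 scaled FPKM at day 1 and 117, 25.2 and 12.2 at 12 weeks, a fall of 4.35 (SE 0.79; limma, adjusted p = 0.00610). Day 1 replicate 3 was the lowest of its group and 12 weeks replicate 1 the highest of its own. MYL1, a fast myosin light chain, repeated this order at 632, 664 and 130.2 and 38.3, 10.5 and 2.0, as did CKM, muscle creatine kinase, at 150.0, 160.5 and 53.5 and 20.5, 5.25 and 3.14. MYL1 fell by 5.11 (SE 0.95; limma, adjusted p = 0.00685) and CKM fell by 3.74 (SE 0.64; limma, adjusted p = 0.00480). The regulatory light chain gene MYLPF, which RefSeq lists under another symbol (MYL11), fell by 4.23, the intermediate filament gene DES (desmin) fell by 3.53, APOBEC2, a striated muscle member of its family, fell by 4.22, and CSRP3, of the muscle Z-disc, fell by 3.96. The summed list was 2083, 2322 and 602 at day 1 and 216.5, 52.9 and 22.2 at 12 weeks. TTN, NEB, MYOD1, MYF5 and PAX7, the last 3 of muscle precursor cells, were too low to be tested. ACTA1 (0.0612 and 0.0637) and MYLPF (0.0561 in the latter) missed the threshold in limma when all 24 stromal libraries or the 12 of both depots shared the fit.

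Growth genes of the fetus and newborn, many of them imprinted, that is expressed from the copy of a single parent, fell almost throughout. Of 14 tested genes 11 fell and none rose, with a median of -1.32, and leaving out any 1 library left 10 or 11. PEG10, a retrotransposon-derived imprinted gene, was at 44.2, 42.6 and 31.2 at day 1 and 4.43, 6.78 and 5.39 at 12 weeks, a fall of 2.62 (SE 0.19; limma, adjusted p = 0.000216). PLAGL1, an imprinted zinc finger factor, went from 37.8, 40.5 and 31.3 to 4.62, 3.56 and 5.45, a fall of 2.77 (SE 0.17; limma, adjusted p = 0.000116). The RNA-binding proteins IGF2BP2 and IGF2BP3, which bind fetal growth messages, fell by 2.73 and 1.54, PEG3 by 1.06 and the receptor adaptor GRB10 by 1.05. PEG3 had a limma adjusted p of 0.0557 without scaling. NDN and NNAT, also imprinted, overlapped between the ages and differed by -0.24 and -0.36 (limma, adjusted p = 0.337 and 0.215). LIN28B, a repressor of let-7 microRNAs, at no more than 0.147 in any library, and HMGA2, a chromatin protein of fetal growth, at 0.585, 0.606 and 0.295 at day 1 and 0.0209, 0.0416 and 0.0459 at 12 weeks, were too low to be tested. IGF2 and H19 were not analysed here.

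RNA of insulin-like growth factor (IGF) axis genes changed in both directions, with 5 of 14 tested genes higher, 6 lower and a median of -0.10. The ligand IGF1 was at 42.1, 37.3 and 32.8 at day 1 and 35.0, 39.9 and 31.0 at 12 weeks, overlapping, a difference of -0.08 (limma, adjusted p = 0.714). Both receptors fell. IGF2R, which takes IGF2 up for degradation, was at 53.0, 57.9 and 49.0 at day 1 and 9.30, 7.98 and 8.13 at 12 weeks, tight groups far apart, a fall of 2.52 (SE 0.13; limma, adjusted p = 6.87e-05), and IGF1R, the signalling receptor, fell by 1.03. Of the binding proteins that hold IGFs in the tissue, IGFBP2 fell by 1.43, while IGFBP5 rose from 50.5, 63.6 and 44.9 to 248, 200.2 and 361, by 2.30 (SE 0.24; limma, adjusted p = 0.000837), and IGFBP6 by 1.33. PAPPA, the protease that frees IGF from binding proteins, and its inhibitors STC1 and STC2 all fell, STC1 from 40.9, 33.2 and 73.0 to 2.64, 2.78 and 2.71, by 3.67, PAPPA by 2.06 and STC2 by 1.26. The growth hormone receptor GHR was at 7.68, 7.37 and 6.38 at day 1 and 21.6, 22.5 and 19.9 at 12 weeks and rose by 1.46 (SE 0.13; limma, adjusted p = 0.000463), and SOCS2, a feedback inhibitor of its signal, rose by 0.98. Without scaling the median of the list was 0.33.

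Cell division genes were lower at 12 weeks in part. Of 34 tested genes 20 fell and none rose, with a median of -0.64. MCM6, a subunit of the helicase that opens DNA for replication, was at 21.8, 26.7 and 14.9 at day 1 and 7.87, 5.66 and 5.03 at 12 weeks, a fall of 1.61 (SE 0.24; limma, adjusted p = 0.00275), and its partners MCM4, MCM2 and MCM5 fell by 1.24, 1.06 and 0.94. CDK1, the kinase of mitotic entry, fell by 0.94 and TOP2A, a topoisomerase of dividing cells, by 0.73. The proliferation marker MKI67 was at 5.90, 7.97 and 6.21 at day 1 and 7.27, 3.32 and 2.22 at 12 weeks, and 12 weeks replicate 1 lay within the day 1 range (limma, adjusted p = 0.164). The count of lower genes moved with the libraries used, to 9 without 12 weeks replicate 2, 11 without day 1 replicate 2, 7 with all 24 libraries in the fit and 4 without scaling. CDK1 (limma, adjusted p = 0.218) and TOP2A (0.107) were not called with all 24 libraries in the fit, CDK1 (0.0699) and TOP2A (0.194) not without scaling, and TOP2A not without 12 weeks replicate 2 (0.0673) or day 1 replicate 2 (0.0526). UBE2C, an enzyme that marks mitotic proteins for destruction, fell by 0.98 and was not called without scaling (0.053) or with all 24 libraries (0.0607).

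WNT genes, which hold progenitors back from becoming adipocytes or steer their fate, moved in both directions, with 6 of 22 tested genes higher and 7 lower. Among ligands, WNT10B rose from 2.76, 2.39 and 1.74 to 7.03, 6.97 and 14.4, by 1.61 (SE 0.28; limma, adjusted p = 0.00493), and WNT2 fell from 27.3, 22.9 and 28.2 to 8.99, 11.3 and 15.3, by 1.10 (SE 0.20; limma, adjusted p = 0.00573). The secreted antagonists split as well. DKK2 rose from 7.77, 9.60 and 7.04 to 26.7, 34.1 and 48.1, by 2.0 (SE 0.22; limma, adjusted p = 0.00109), whereas DKK3 and SFRP1 fell by 1.65 and 1.40. TCF7, a transcription factor of the pathway that is also abundant in T cells, rose by 1.90, in libraries where T cell genes rose too. The part of T cell RNA in its change was not tested. The list's median of -0.11 was 0.36 without scaling.

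Of 23 tested genes of TGF-beta and BMP signalling, 3 rose and 6 fell, with a median of -0.14. FST, which traps activins, was at 6.80, 7.29 and 6.47 at day 1 and 34.7, 25.3 and 45.2 at 12 weeks, a rise of 2.16 (SE 0.21; limma, adjusted p = 0.000573), and INHBA, the activin A subunit, fell from 7.12, 5.75 and 3.41 to 0.828, 1.58 and 0.948, by 1.57 (SE 0.26; limma, adjusted p = 0.00404). BMP4, a ligand that commits progenitors to the adipocyte fate, rose by 1.32, and CHRDL1, a BMP antagonist, by 0.94. The inhibitory SMAD7 and SMAD6, feedback brakes of the pathway, fell by 1.93 and 1.51, and the receptor TGFBR2 by 0.83. Without scaling TGFBR2 was not called (limma, adjusted p = 0.113), the median was 0.29 and 8 genes were called higher, and 5 were called higher without day 1 replicate 3.

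Blood vessel endothelium changed little as a list, and genes of lymphatic vessels fell. Of 19 tested genes 1 rose and 3 fell, with a median of -0.02. PECAM1, the junction protein of all endothelium, was at 112, 93.0 and 192 at day 1 and 116, 122 and 70.3 at 12 weeks, overlapping (-0.33, limma adjusted p = 0.441), and the ages overlapped as well for CDH5 and KDR, a junction protein and a VEGF receptor (-0.09 and -0.19). Day 1 replicate 3 was the highest library for all 3 genes. PROX1, the master regulator of lymphatic endothelium, was at 3.60, 4.81 and 3.05 at day 1 and 0.397, 0.347 and 0.902 at 12 weeks, a fall of 1.64 (SE 0.21; limma, adjusted p = 0.00178). MMRN1, a matrix protein of lymphatic vessels, fell by 2.0 and LYVE1, the hyaluronan receptor of lymphatics and some macrophages, by 1.79. LYVE1 missed the threshold without 12 weeks replicate 3 (limma, adjusted p = 0.0532), day 1 replicate 1 (0.0625) or day 1 replicate 2 (0.053). FLT4, another lymphatic receptor, was at 5.05, 5.56 and 4.56 and 5.08, 5.82 and 4.88 and differed by 0.05 (limma, adjusted p = 0.811). The endothelial sialomucin EMCN rose by 1.30. The count of higher genes was 4 without day 1 replicate 3, 2 without 12 weeks replicate 3 and 5 without scaling, where the median was 0.46.

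Scavenger receptors of macrophages were among the genes of the macrophage list that fell. CD163, the haemoglobin scavenger receptor of resident macrophages, was at 75, 44.2 and 37.9 at day 1 and 1.73, 10.4 and 3.80 at 12 weeks, a fall of 3.27 (SE 0.49; limma, adjusted p = 0.00302). MRC1, the mannose receptor, went from 97.7, 89.2 and 68.8 to 6.71, 27.6 and 10.6, a fall of 2.64 (SE 0.43; limma, adjusted p = 0.00413), and MARCO and MSR1, also scavenger receptors, fell by 2.26 and 2.26. In CD163 and MRC1, replicate 2 was the highest of the 12 weeks libraries. Of genes carried by monocytes and macrophages in general, the lipopolysaccharide co-receptor CD14 and the transcription factor SPI1 were called lower (-0.97 and -0.59, limma adjusted p = 0.0174 and 0.0399). The call of SPI1 was lost without any 1 of 5 of the 6 libraries (limma, adjusted p = 0.0503 to 0.12), and without scaling its difference was -0.12 (0.545). The lysosomal protein gene CD68 differed by -0.40 (limma, adjusted p = 0.163) and the growth factor receptor CSF1R, at 33.3, 38.6 and 37.1 and 14, 45.6 and 30.9, by -0.41 (0.424). GPNMB, a gene of lipid-laden macrophages, rose from 0.873, 0.417 and 1.22 to 4.46, 6.89 and 8.4, by 2.04 (SE 0.25; limma, adjusted p = 0.00154). In all, 7 of 17 tested genes fell and 1 rose, with a median of -0.45, which was 0.00 without scaling.

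Nearly all lymphocyte genes rose, with 14 of 15 tested genes higher (CD3G was not called), none lower and a median of 1.61. CD3E, part of the T cell receptor complex, was at 1.56, 2.26 and 3.45 at day 1 and 22.1, 13.3 and 10.5 at 12 weeks, a rise of 2.22 (SE 0.30; limma, adjusted p = 0.00199). The co-receptor CD4 went from 0.318, 0.834 and 1.01 to 11.2, 6.41 and 5.01, and CD8A and the T cell kinase LCK rose by 1.24 and 2.0. CD3D, a partner of CD3E, rose by 2.43, though not past the threshold without 12 weeks replicate 1 (limma, adjusted p = 0.064) or replicate 3 (0.052). Of B cell genes, MS4A1, the CD20 antigen, was at 0.934, 1.23 and 0.863 and 7.35, 5.30 and 3.34, a rise of 1.61 (SE 0.24; limma, adjusted p = 0.00312), and CD79B, part of the B cell receptor, rose by 2.42. Replicate 1 was the highest 12 weeks library for CD3E, CD4, MS4A1 and JCHAIN, and the summed list was 156.5, 94.3 and 70.0 at 12 weeks against 11.7, 21 and 23.1 at day 1. PTPRC, carried by all leukocytes, overlapped at 12.3, 14.8 and 10.9 and 32.4, 23.7 and 13.5 (0.75, limma adjusted p = 0.0834).

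Antigen presentation and interferon genes were higher in part, with 8 of 17 called, all upward, and a median of 0.80. CD74, the chaperone of MHC class II, was at 85.3, 106 and 107 at day 1 and 368, 331 and 304 at 12 weeks, a rise of 1.74 (SE 0.15; limma, adjusted p = 0.000433), and CIITA, which switches on MHC class II genes, rose by 1.31. B2M of MHC class I and the peptide transporter TAP1 rose by 0.86 and 0.94. The interferon-induced genes OAS1 and IFIT2 rose by 1.8 and 1.39, whereas MX1, also induced by interferon, overlapped and differed by 0.26 (limma, adjusted p = 0.398). Without scaling 14 of the 17 were called higher.

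Complement genes were led by an inhibitor. C4BPA, which blocks the classical and lectin pathways, was at 22.7, 26.8 and 16.3 at day 1 and 154, 183 and 318 at 12 weeks, a rise of 3.21 (SE 0.29; limma, adjusted p = 0.000472), and the inhibitors CFI and SERPING1 rose by 1.59 and 1.32. The central component C3 was at 34.2, 31.2 and 37.0 and 26.9, 47.2 and 34.5 and differed by 0.05 (limma, adjusted p = 0.873). Of 13 tested genes 4 rose and none fell, with a median of 0.05. C1R, a protease that starts the classical pathway, was the fourth higher gene at 0.78 (limma, adjusted p = 0.0414) and was not called without 12 weeks replicate 1 (0.101) or replicate 3 (0.111), or without day 1 replicate 1 (0.0558), replicate 2 (0.0763) or replicate 3 (0.103).

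Of the single genes followed outside the lists, NOX5, a calcium-activated oxidase that makes superoxide, was at 0.595, 0.587 and 0.210 at day 1 and 1.61, 2.67 and 13.4 at 12 weeks. 12 weeks replicate 3 was the highest by far, and the rise of 1.83 (SE 0.57; limma, adjusted p = 0.0425) was not called without 12 weeks replicate 2 (0.0615), day 1 replicate 1 (0.0951), replicate 2 (0.0816) or replicate 3 (0.106). LOC100009266, most abundant at day 1 after ADORA1, was at 59290, 51160 and 100300 at day 1 and 11160, 6952 and 8872 at 12 weeks, a fall of 2.93 (SE 0.36; limma, adjusted p = 0.00154), and with no filter on low values it was not called (0.196).

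Most granulocyte, mast cell and Schwann cell genes fell. The granulocyte and mast cell list had 9 of 11 tested genes lower, none higher and a median of -1.36, and 4 were called lower with all 24 libraries in the fit. The neutrophil alarmins S100A8 and S100A9 were at 160.3, 136 and 67.8 and 232, 192 and 81.2 at day 1 and at 36.8, 16.4 and 41.1 and 43.8, 16.4 and 38.1 at 12 weeks. Their falls were 1.93 (SE 0.41; limma, adjusted p = 0.0112) and 2.31 (SE 0.47; limma, adjusted p = 0.00902), and S100A8 was not called with all 24 libraries in the fit (0.0652). The related alarmin S100A12, which RefSeq lists as LOC100008703, fell by 2.23, though not past the threshold without day 1 replicate 1 (limma, adjusted p = 0.0572) or with all 24 libraries in the fit (0.0762). HDC, the histamine-forming enzyme of mast cells and basophils, fell by 1.47, from 3.06, 2.22 and 3.35 to 1.00, 0.326 and 0. Among other mast cell genes MS4A2 fell by 0.76. KIT and FCER1A overlapped between the ages and differed by 0.29 and -0.59 (limma, adjusted p = 0.383 and 0.183). With a filter at 5 scaled FPKM, 5 genes of the list were called lower.

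Schwann cells, which wrap and insulate peripheral nerves, had 9 of 10 tested genes lower and none higher, with a median of -1.29. NGFR, a neurotrophin receptor, was at 5.58, 15.1 and 15.8 at day 1 and 0.717, 0.944 and 1.10 at 12 weeks, with no overlap, and fell by 2.66 (SE 0.35; limma, adjusted p = 0.00183). The lineage factor SOX10 and the myelin protein MBP fell by 1.83 and 1.75. S100B, also made by adipocytes, was the exception, at 9.02, 13.4 and 6.87 and 18.5, 6.18 and 16.0 (0.35, limma adjusted p = 0.519). Of the mesothelium and epithelium list only 2 genes were tested, and both fell (median -1.41). Both passed the filter only through their day 1 libraries, a route by which all 312 called genes were lower. Their direction is therefore no result about the list, and with a filter at 5 scaled FPKM 0 were called. The epithelial keratin KRT8 fell by 2.22, from 2.21, 9.20 and 5.03 to 0.466, 0.132 and 0.183, and KRT19 by 0.60, a call lost without any 1 of the 6 libraries (limma, adjusted p = 0.0507 to 0.0915), while EPCAM, CDH1 and KRT5 were too low to be tested.

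Red cell genes were mixed. Of 11 tested genes 4 fell and none rose, with a median of -0.75. The haemoglobin gene HBB2 was at 45580, 14890 and 20800 at day 1 and 29160, 30180 and 25400 at 12 weeks, overlapping, with a difference of 0.22 (limma, adjusted p = 0.727), and ALAS2, which starts haem synthesis in red cell precursors, differed by 0.42 (0.404). HEMGN, a nuclear protein of red cell precursors, fell by 1.72 (SE 0.41; limma, adjusted p = 0.0164), EPB42, a protein of the red cell membrane, by 1.24 and the transferrin receptor TFRC by 0.91. HEMGN (limma, adjusted p = 0.0562) and EPB42 (0.0592) were not called without 12 weeks replicate 3, EPB42 not without 12 weeks replicate 2 (0.061), and TFRC (0.0944) and EPB42 (0.0506) not without scaling. Without 12 weeks replicate 3 the list had 2 lower genes, and without day 1 replicate 3 it had 1 higher gene, the red cell transcription factor KLF1.

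**Figure D3:**
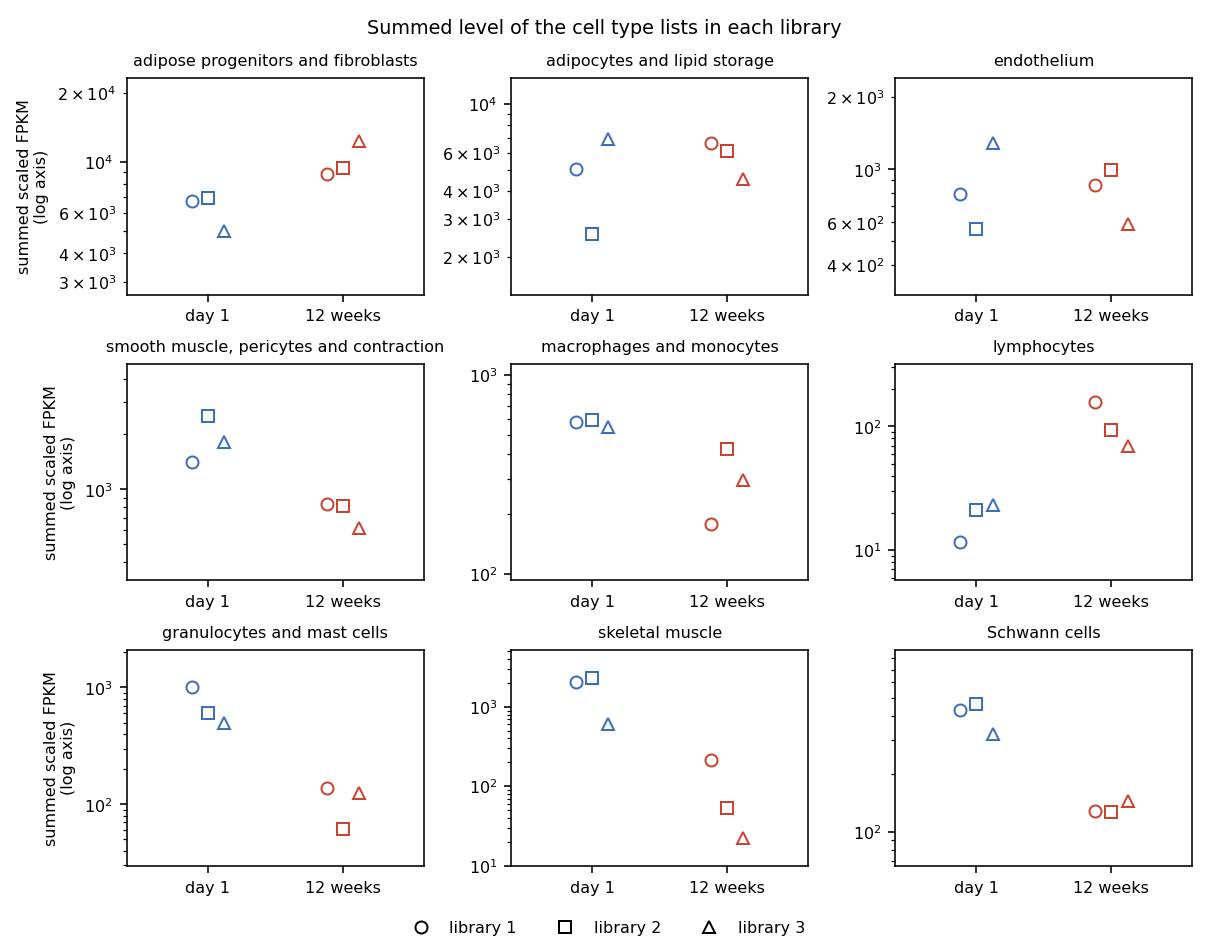
Summed scaled FPKM (log axis) of 9 cell type lists in each library at day 1 (blue) and 12 weeks (red), with symbols for the library number. The ages are apart for skeletal muscle (602 to 2322 against 22.2 to 216.5), granulocytes, Schwann cells, lymphocytes, macrophages, contractile cells and progenitors, and overlap for adipocytes and endothelium. In each sum the most abundant genes weigh most, and the adipocyte sum is mostly FABP4, a gene shared with capillary endothelium.

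Genes induced within minutes of stimulation, which tissue digestion can also induce, changed unevenly. The nuclear receptors NR4A1 and NR4A2 were at 304, 204 and 213 and 123, 132 and 124 at day 1 and at 62.6, 73.2 and 99.7 and 38.4, 42.8 and 32.0 at 12 weeks, falls of 1.6 (SE 0.23; limma, adjusted p = 0.00233) and 1.73 (SE 0.14; limma, adjusted p = 0.000350). FOSL1, EGR2, EGR3 and MYC fell by 1.57, 1.41, 1.39 and 1.30, whereas FOS and EGR1 overlapped and differed by 0.21 and 0.10 (limma, adjusted p = 0.440 and 0.788). Of 19 tested genes 7 fell and 2 rose, with a median of -0.31, which was 0.18 without scaling. JUN, which rose by 0.81 (SE 0.19; limma, adjusted p = 0.0173), was not called without 12 weeks replicate 2 (0.0632), day 1 replicate 1 (0.065) or day 1 replicate 2 (0.0536), and HSPA8, a heat shock gene at 0.69, was not called without any 1 of these or without 12 weeks replicate 1 (0.121).

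The other 2 ages of the same depot showed when the levels moved. Of the 1869 genes called higher at 12 weeks, 68.1% were already nearer to their 12 weeks than to their day 1 mean at 3 weeks and 72.5% at 6 weeks, and 31.9% lay beyond the 12 weeks mean at 6 weeks. Of the 1944 called lower the shares were 75.8%, 77.1% and 39.5%. These shares describe genes chosen by their end points and carry no test. The 3 weeks libraries stood apart, with ADORA1 and LOC100009266 at 69.5% of the summed FPKM, only 12416 to 13888 genes above 0 and size factors of 0.309 to 0.523, against 0.950 to 1.056 at day 1 and 1.308 to 1.441 at 12 weeks, so their scaled levels are the least certain.

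The named genes took different courses. UCP1 was still at 61.7 to 120.3 scaled FPKM at 3 weeks, within or above its day 1 range, and at 0.480 to 4.89 at 6 weeks. ALDH1A1 was at 74.3 to 83.5 at 3 weeks, already at its 12 weeks level, and stayed at 81.4 to 112 at 6 weeks. DLK1 stepped down, with means of 235.6, 87.8, 59.6 and 13.5 at the 4 ages. ALOX15 was at 9.30 to 31.6 at 3 weeks and at no more than 0.114 at 6 weeks. CIDEA and CIDEC were high at 3 weeks (50.1 to 65.3 and 20.6 to 64.0), lower at 6 weeks (19.3 to 43.1 and 9.86 to 21.3) and high again at 12 weeks. SNCG and CYP2B4 came late, with means of 8.53 and 0.645 at 3 weeks and 26.3 and 3.22 at 6 weeks. CD163, low at 3 weeks (6.43 to 24.9), was at 29.0 to 47.8 at 6 weeks and low again at 12 weeks. CD3E, at 1.83 to 9.41 at 3 weeks and 2.63 to 3.60 at 6 weeks, had its highest values at 12 weeks. NGFR was at 0.729 to 5.86 at 3 weeks and 1.03 to 2.46 at 6 weeks.

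**Figure D4:**
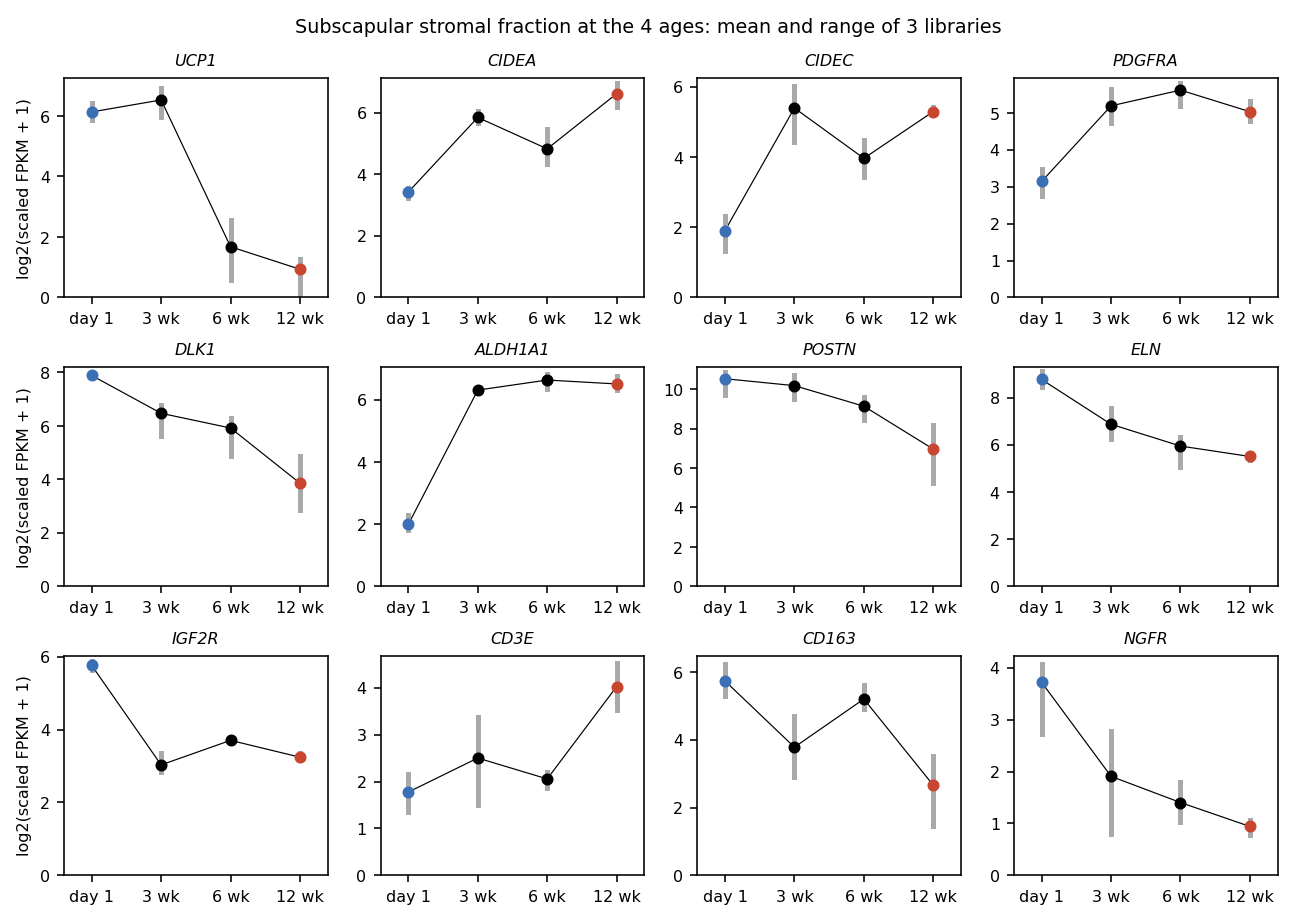
Level of 12 genes at day 1 and at 3, 6 and 12 weeks in the subscapular stromal fraction, as log2(mean scaled FPKM + 1) with a grey bar for the range of the 3 libraries and axes from 0. On the scaled values UCP1 is as high at 3 weeks as at day 1, while ALDH1A1, PDGFRA and IGF2R are near their 12 weeks level by 3 weeks. The 3 weeks levels rest on size factors of 0.309 to 0.523 and are the least certain.

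The interscapular stromal fraction moved in much the same way over the same interval, with its own day 1 libraries as reference. Of the genes called higher in the subscapular fraction, 93.9% also had a positive change in the interscapular one, and of those called lower 92.2% a negative one, beside 75.8% of all tested genes with the same sign. The difference between the depots in the change was tested for 12629 genes, and 156 (1.24%) were called by limma, 90 more positive in the subscapular fraction and 66 less. That count ranged from 1 to 707 when 1 of the 12 libraries was left out, so single calls are given with their stability. At an unadjusted limma p under 0.05 there were 2772 of the 12629, so the 156 calls are no measure of how many genes differed between the depots.

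CEBPA was the steadiest of the differences named by rule. It rose in the subscapular fraction, as given above, while the interscapular libraries were at 7.02 to 8.11 scaled FPKM at day 1 and 5.32 to 6.27 at 12 weeks. The change differed by 2.10 (SE 0.19; limma, adjusted p = 0.00184) and was called under all 24 alternatives. MYOC, up in the subscapular fraction, was at means of 7.19 and 7.02 in the interscapular one, a difference of 3.35 (limma, adjusted p = 0.0368). The transcription factor REL differed by 1.89 (0.0477), and GPC3, which fell in both depots, fell less here, by 2.12 (0.0340). In the other direction, ADORA1, the adenosine A1 receptor gene, fell here and was at interscapular means of 9557 and 14490, a difference of -3.27 (0.0474). Whether such levels reflect the transcript or the quantification could not be told from FPKM. The fall of ADORA1 between the ages was not called with no filter on low values (limma, adjusted p = 0.394) or with all 24 libraries in the fit (0.054). RPS27L and the formyl peptide receptor FPR1 of phagocytes, both lower at 12 weeks in the subscapular fraction, differed by -3.11 (0.0485) and -2.61 (0.0368), and without day 1 replicate 1 the fall of RPS27L between the ages was not called (0.0579). MMP27, a matrix protease, went from 1.58 to 46.3 in the interscapular means and, too low here for the test between the ages, was at 0.174, 0.559 and 0 and 0.717, 1.90 and 3.65, a difference of -2.94 (0.0315). At such low subscapular values the pseudocount matters, and with one of 0.1 the difference of MMP27 was -1.98 and not called (limma, adjusted p = 0.246). Each of these 7 other calls was lost under at least 9 of the alternatives, among them the removal of 12 weeks replicate 2 of the subscapular fraction and of 12 weeks replicate 1 of the interscapular fraction.

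**Figure D5:**
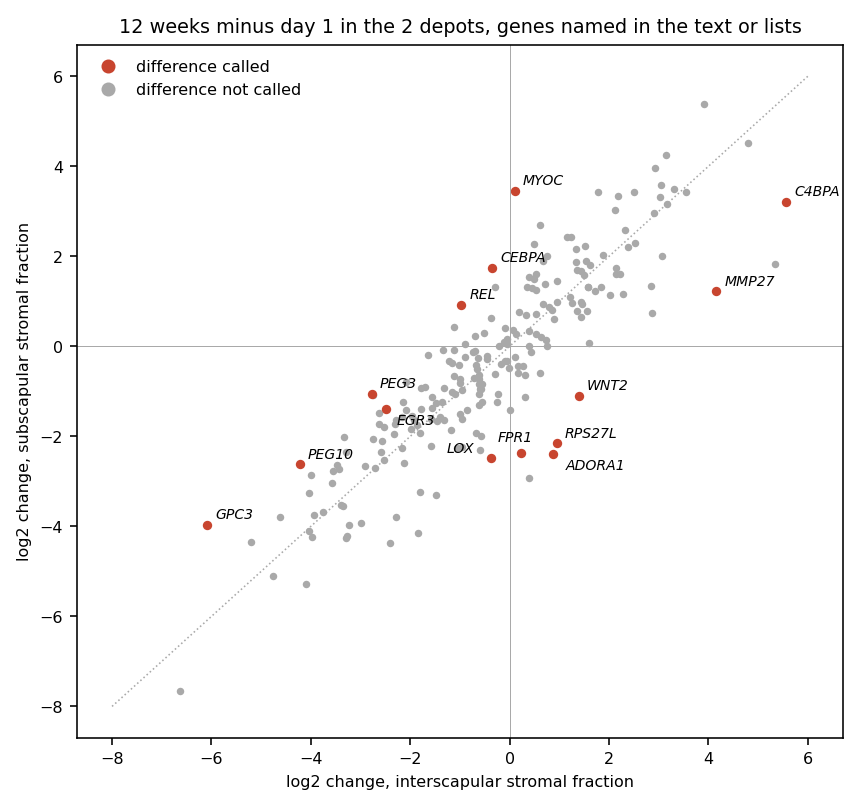
Change from day 1 to 12 weeks in the interscapular (x axis) and subscapular (y axis) stromal fraction for 223 genes of the lists and rules, on the log2(scaled FPKM + 1) scale; the dotted line marks equal change. The 14 genes with a called difference are red and named, with MYOC, CEBPA and REL above the line and C4BPA, MMP27, WNT2 and LOX among those below it.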

How the data were processed

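Bulk RNA-seq of 24 stromal vascular fraction libraries was deposited by the authors as FPKM per gene, with no counts. The submitters' processing notes name HISAT2 2.0.4, Bowtie2 2.2.5, DESeq2 and the OryCun2.0 build, and the quantification tool and annotation are not given in the sources used here. From these values size factors were computed as median ratios over 11056 genes above 0 in all 24 libraries. Log2(scaled FPKM + 1) of genes at 1 or more in at least 3 of 6 libraries was tested with limma 3.58.1 (variance trend, R 4.3.3) between the 2 ages, and calls were made at an adjusted p under 0.05. The depot difference used the 12 libraries of both depots.

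Genes named in the text were the 12 largest rises and falls among genes whose symbol does not start with LOC, with a mean of 10 or more in one group and no overlap, the 4 largest depot differences in each direction, a list of key genes and up to 4 called members of each of 22 lists, with others by value. The members and lists were chosen with earlier results of these data known. On simulated data for the age comparison (11950 genes), 71 of 100 genes changed by 1 on the log2 scale and 91 of 100 changed by 2 were called, with 6 false calls. The changed genes were few and drawn from those above a minimum level, and the noise was normal. These rates need not hold for genes at low levels. Alternatives were scaling, pseudocount, filter, variance trend, a minimum change, shared fits, a replicate block and each library left out. The total tissue table (12 libraries) and 3 single-cell samples were not analysed here, and some genes are not reported here.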

Additional observations from a re-analysis of the deposited data

Results flagged for a closer look

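Of the genes named by rule or in the lists, 14 had a change from day 1 to 12 weeks that differed between the subscapular and the interscapular stromal fraction (limma, adjusted p under 0.05), given here as the subscapular minus the interscapular change on the log2 scale. More positive in the subscapular fraction were MYOC (3.35), GPC3 (2.12), CEBPA (2.10), REL (1.89), PEG3 (1.71), PEG10 (1.6) and EGR3 (1.09). More negative were ADORA1 (-3.27), RPS27L (-3.11), MMP27 (-2.94), FPR1 (-2.61), WNT2 (-2.50), C4BPA (-2.35) and LOX (-2.10). CEBPA was called in 24 of 24 alternatives (adjusted p 0.00116 to 0.0132). WNT2 was called in 21 of 24, PEG10 and LOX in 20, and the other 10 in 10 to 15 of 23 or 24. WNT2 moved in opposite directions, from 23.4 to 45.8 up to 78.1 to 89.1 scaled FPKM in the interscapular libraries, while it fell in the subscapular ones. LOX was at 95.5 to 138 and 72.7 to 92.0 in the interscapular libraries. PEG10, lower at 12 weeks in both depots, went there from 48.6 to 52.0 at day 1 to 1.57 to 1.93 at 12 weeks.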

How the results depend on the processing

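The table holds FPKM without counts, so absolute depth and counting error are unknown, and 3 libraries a group limit the precision. Of 169 called genes followed by name, 123 were called under every alternative that could be fitted, and COX5A (0.014) and UQCRC1 (0.034) alone changed sign, without scaling. Without scaling 5890 genes were called between the ages (5089 higher, 801 lower) and 3342 for the depot difference. A minimum change of 1 on the log2 scale left 1491 (748 and 743), and a filter at 5 scaled FPKM left 1245 higher genes. The depot difference gave 287 calls with the 2 dominant genes left out and 75 with no filter. Leaving out 1 library gave 2408 to 3615 calls between the ages, 1155 to 1757 higher and 1253 to 1858 lower, and 1 to 707 for the depot difference, with 1 without interscapular 12 weeks replicate 1 or subscapular 12 weeks replicate 2 and 707 without subscapular 12 weeks replicate 3. Leaving out subscapular 12 weeks replicate 2 or day 1 replicate 1 lowered the higher calls to 1155 and 1217 and the lower calls to 1253 and 1288. A replicate block gave 2953 calls between the ages and 709 for the depot difference. Same-numbered libraries correlated in their deviations at 0.07, -0.22 and -0.02 across the ages, and across the depots at 0.05, 0.61 and 0.32 at day 1 and 0.19, 0.50 and 0.33 at 12 weeks. Across the depots all libraries but 1 correlated best with their own number, a hint from the data, but the labels give the numbers no meaning and 1 pair was under 0.1, so they were not taken as pairs.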

Other observations

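Genes without a standard symbol, which the rule for the largest changes left out, included some of the largest of all. The genes of this section were chosen after their values were seen, and the names are the descriptions in the deposited table. Of the genes that rose, 4 encode enzymes that metabolise foreign compounds. LOC100328613, cytochrome P450 1A1, was at 0.103, 0.265 and 0.263 scaled FPKM at day 1 and 93.8, 225.5 and 56.8 at 12 weeks, a rise of 6.47 on the log2 scale (limma, adjusted p = 0.000149). LOC100328910, a glutathione S-transferase of the alpha class, was at 0.811, 1.39 and 0 at day 1 and at 123.8, 131.4 and 131.5 at 12 weeks, a rise of 6.32. LOC100342572 (cytochrome P450 2E1) and ST1A8 (a phenol sulfotransferase) rose by 3.4 and 2.61. LOC100346046, annotated as acyl-CoA desaturase-like, an enzyme type that puts double bonds into fatty acids, went from 0.975, 1.06 and 0.431 to 128.0, 79.6 and 88.1, a rise of 5.76. Antibody genes rose with JCHAIN and MZB1. The Ig gamma constant region LOC100009097 went from 2.38, 1.13 and 2.44 to 199.0, 147.9 and 260.2, a rise of 6.09 (limma, adjusted p = 2.38e-05), and the immunoglobulin variable segments LOC103346901, LOC103347625 and LOC108176404 rose by 4.47, 4.70 and 5.24.

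Other genes that fell included IL6 and PTX3. IL6, a cytokine of the acute phase, was at 270.4, 103.5 and 142.1 at day 1 and at 12.4, 9.79 and 9.57 at 12 weeks, a fall of 3.79 (limma, adjusted p = 0.000374). The pentraxin PTX3, an acute phase protein, fell by 3.31. The chemokines LOC103351517 (CCL7-like) and LOC100348776 (CCL3) fell by 2.37 and 2.2. LOC100346323, annotated as neuroendocrine secretory protein 55-like, was at 34.8, 33.9 and 39.8 at day 1 and at 0.0765, 0.222 and 0.298 at 12 weeks, a fall of 4.95. LOC100352190, annotated as chymase-like, the protease type of mast cell granules, was at 22.7, 19.6 and 38.5 at day 1, listed at 0 in 2 of the 12 weeks libraries and at 0.214 in the third.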
